A study of Homo sapiens with 6 samples.

Results

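Cohesin and condensin are ring-shaped protein complexes that organise chromosomes. The 10 genes described here encode their subunits, with 1 loading factor, and were taken by name: SMC1A, SMC3, RAD21, STAG1 and STAG2 of cohesin, the cohesin loader NIPBL, and SMC2, SMC4, NCAPG and NCAPH of condensin. Each name was matched to 1 Ensembl gene of the deposited table, which holds 60664 genes, and all 10 were among the 15130 genes tested. Cohesin holds sister chromatids together from replication until anaphase and extrudes chromatin loops in interphase. Condensin shortens chromosomes in mitosis. Both are built on a pair of SMC ATPases closed by a kleisin subunit, and several of their genes are transcribed most strongly in proliferating cells, with NCAPG and NCAPH highest late in the cell cycle.

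The cells were SiHa PR, from which the study derived a lymph node metastatic subline. SiHa is an established line of human cervical squamous carcinoma, and its poly-A RNA was sequenced. The control group was 3 samples of SiHa PR cells, and the other group was 3 samples of SiHa PR cells overexpressing P4HA3, a prolyl 4-hydroxylase subunit, from a cloned cDNA. The comparison asks which transcripts differ with P4HA3 overexpression. According to the study's methods the cDNA was carried by a lentiviral pCDH vector, and the sample names do not say whether the control cells carried an empty one. For RT-qPCR and blots the study compared P4HA3-overexpressing SiHa PR cells with vector cells, but for the RNA-seq it names only control cells. The sample names also do not say whether the samples of a group came from separate cultures, so p-values measure the spread between these samples only.

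The overexpressed gene was checked first. P4HA3 was at 3.53, 2.91 and 3.8 CPM (counts scaled to library size by the TMM method of edgeR) in the control libraries, in the order of replicates 1 to 3 that is kept throughout, and at 1934, 1991 and 1936 CPM in the overexpressing libraries. Total counts ran from 21773488 to 24939948 per library. The growth protocol in the labels describes uterine smooth muscle, whereas the cell line label gives SiHa. KRT8 and KRT18, keratins of simple epithelia, were at 1817 and 942 CPM in control cells, while CDH1 was at 16.5 CPM, EPCAM at 5.77, KRT19, also a keratin of simple epithelia, at 0.841, TP63 at 0.392 and KRT5 at 0.158 CPM (control means of all 7 epithelial markers). The 6 smooth muscle markers summed to between 6.86 and 10.6 CPM in every library. ACTA2 was the highest of them, at 7.78 CPM in control cells, and ACTG2 was at 0.424 and 1.17 CPM in the group means. MYH11, DES, CNN1 and LMOD1 were below 0.2 CPM in both group means. The 3 leukocyte markers PTPRC, CD68 and CD3E summed to at most 0.0821 CPM in any library, and CD3E of T cells had no count. GC dependence varied from library to library. Across genes, the departure of a library from its group mean had a Spearman's rho with GC content of 0.47 in P4HA3 overexpression replicate 1 and -0.50 in replicate 2, and 0.40 in control replicate 2 and -0.54 in control replicate 3. The log2 fold change had a rho of -0.58 with GC content over 15107 genes. Values with each library's smooth trend on GC content and transcript length removed are therefore given beside the uncorrected ones.

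The promoters of SMC1A, STAG1, NCAPG and NCAPH are shown because these are the 4 subunits that were called, and whose groups did not overlap, both before and after this correction. Each RefSeq window (GRCh38.p14) runs from 250 bases before the start site to 50 bases after it, 5′ to 3′ on the strand of the gene. SMC1A lies at chrX:53422605-53422904 on the minus strand, STAG1 at chr3:136752329-136752628 on the minus strand, NCAPG at chr4:17810729-17811028 on the plus strand and NCAPH at chr2:96335516-96335815 on the plus strand. Capitals mark every match, on either strand, to TTTGAA (the cell cycle genes homology region), CCAAT (the NF-Y box) and TTTCCCGC or TTTGGCGC (E2F sites).
SMC1A: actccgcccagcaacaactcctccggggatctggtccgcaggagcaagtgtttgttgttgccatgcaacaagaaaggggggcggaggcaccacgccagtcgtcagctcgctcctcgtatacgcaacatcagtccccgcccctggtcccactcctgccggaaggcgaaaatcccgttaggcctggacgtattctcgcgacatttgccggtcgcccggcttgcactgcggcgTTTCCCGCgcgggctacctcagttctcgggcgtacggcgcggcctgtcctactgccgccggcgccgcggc
STAG1: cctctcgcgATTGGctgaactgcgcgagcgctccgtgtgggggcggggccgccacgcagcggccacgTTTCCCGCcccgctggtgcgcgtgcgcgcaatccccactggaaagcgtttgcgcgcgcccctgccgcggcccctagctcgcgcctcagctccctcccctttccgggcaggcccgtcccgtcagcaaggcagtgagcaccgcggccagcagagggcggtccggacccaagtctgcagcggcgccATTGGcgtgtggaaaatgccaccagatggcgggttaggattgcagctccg
NCAPG: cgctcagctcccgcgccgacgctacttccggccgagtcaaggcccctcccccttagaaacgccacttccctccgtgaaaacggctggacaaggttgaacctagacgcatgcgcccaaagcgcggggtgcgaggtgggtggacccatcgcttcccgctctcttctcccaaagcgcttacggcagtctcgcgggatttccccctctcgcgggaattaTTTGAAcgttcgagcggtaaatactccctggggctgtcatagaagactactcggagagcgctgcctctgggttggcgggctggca
NCAPH: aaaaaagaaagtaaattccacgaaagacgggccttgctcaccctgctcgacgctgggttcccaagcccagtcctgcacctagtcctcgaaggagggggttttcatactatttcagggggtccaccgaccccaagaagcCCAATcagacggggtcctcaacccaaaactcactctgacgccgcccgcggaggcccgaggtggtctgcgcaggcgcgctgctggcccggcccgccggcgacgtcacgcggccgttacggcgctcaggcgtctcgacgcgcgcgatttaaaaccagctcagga
NCAPG held TTTGAA from position -35 to -30, counted from the start site, and NCAPH held CCAAT from -112 to -108. STAG1 held CCAAT on the other strand at 2 places and TTTCCCGC from -183 to -176, and SMC1A held TTTCCCGC from -20 to -13. In the windows of the other subunits, STAG2 held 2 CCAAT boxes and TTTGGCGC from -51 to -44, and NIPBL held TTTGGCGC from -49 to -42. SMC3 held TTTGAA on the other strand, and no match was found for SMC2 or SMC4. The windows of STAG2 (from chrX:123961808), SMC2 (from chr9:104094377) and SMC4 (from chr3:160400309) began downstream of their gene models. Those models begin at 123960212, 104094260 and 160399274, and the sequence around these positions was not scanned. A missing match in SMC2 or SMC4 thus refers to the RefSeq window only. Windows were matched for 9 of the 10 genes, with RAD21 the exception. An E2F motif was present in 4 of the 9, STAG2 with its downstream window included, against 2.27% of 35116 promoters of the same length. Both E2F motifs contain CpG, and the 9 windows held 16 to 37 CpG dinucleotides against a median of 14 over all promoters, so the share over all promoters is not one for windows of like composition. TTTGAA was in 2 of the 9 and 15.2% of all promoters, and CCAAT in 3 of the 9 and 34.6%.

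All 10 subunits had higher mean expression with P4HA3 overexpression, and 5 of them passed the test, SMC1A, STAG1, SMC4, NCAPG and NCAPH (quasi-likelihood test of edgeR, Benjamini-Hochberg adjusted over all genes tested, adjusted p under 0.05). None was lower at an adjusted or unadjusted p under 0.05 by edgeR, DESeq2 or limma-voom. Among all genes tested, 9.36% were called higher, 11.4% lower, and 50.7% had a positive log2 fold change. The log2 fold changes of the 10 ran from 0.23 to 0.72 with a median of 0.492, against a median of 0.006 over all genes tested. With the GC content and length trends removed, the median was 0.288 (all genes 0.019), and the same 5 genes were called higher and 0 lower by edgeR, against 10.6% and 7.94% of all genes. All 10 stayed positive, against 53.8% of all genes. With the GC content trend alone removed, 4 subunits were called higher and SMC4 was not, beside 1286 higher calls over all genes. The number called depended on the libraries: leaving out control replicate 1, 2 or 3 gave 1, 1 and 5, and leaving out P4HA3 overexpression replicate 1, 2 or 3 gave 10, 3 and 2. Calls over all genes moved as well. In the same fits, 229, 163 and 1393, then 2814, 884 and 275 genes were called higher, against 1416 with all libraries. In bulk RNA, more RNA per cell and more cells in a phase that contains the RNA cannot be told apart.

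**Figure D1:**
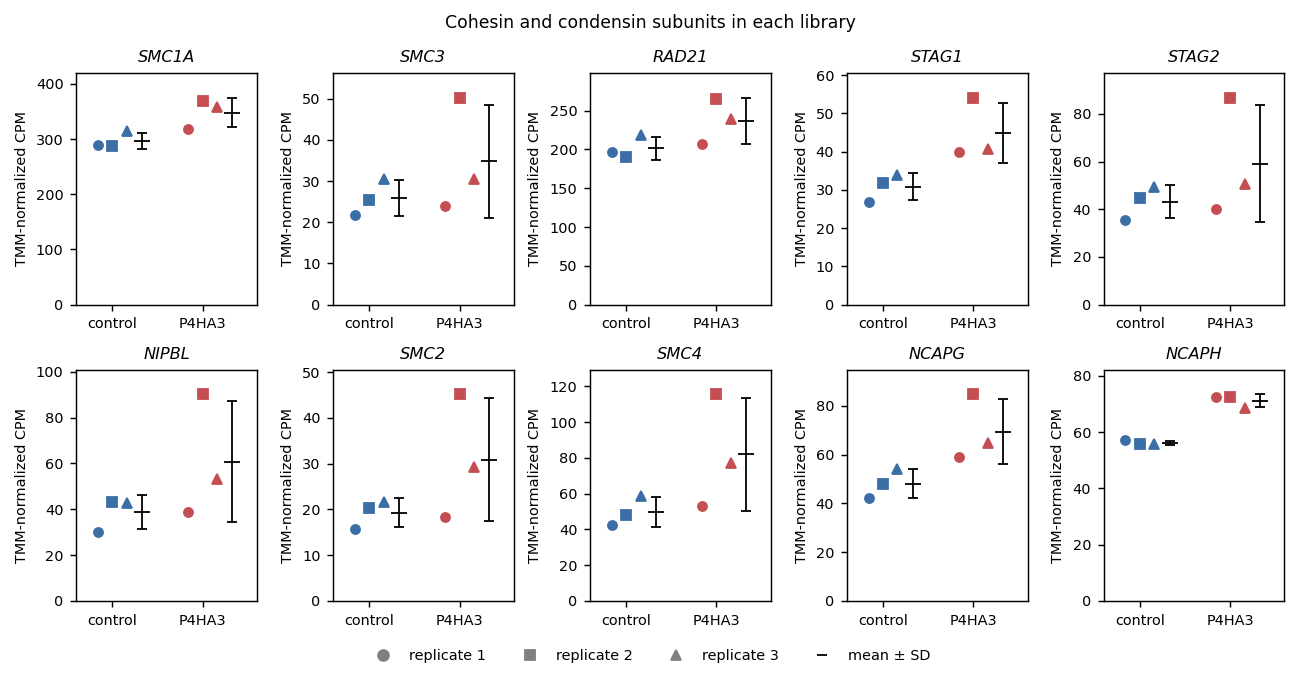
TMM-normalized CPM (vertical axes, each from 0) of the 10 subunits in the 3 control (blue) and 3 P4HA3 overexpression (red) libraries, with replicates 1, 2 and 3 as circles, squares and triangles and the mean ± SD in black. P4HA3 overexpression replicate 2 is the highest library for 9 of the 10 genes, and NCAPH has the tightest groups, at 56.2 ± 0.722 and 71.1 ± 2.25 CPM.

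Among the condensin subunits, NCAPH differed most clearly. NCAPH encodes the kleisin of condensin I, the bridge between the SMC heads, and lies on chromosome 2 of GRCh38 from 96335766 to 96377091 (plus strand, 18 exons in its canonical transcript, 46.1% GC). It was at 57.0, 55.8 and 55.8 CPM in the control libraries and at 72.5, 72.4 and 68.5 CPM with P4HA3 overexpression. In these uncorrected values the lowest overexpressing library exceeded the highest control library by more than the range within either group. With the trends removed the values were 59.9, 58.4 and 55.3 against 74.4, 66.9 and 66.2 CPM. The groups stayed apart, but by less than the range of the overexpressing group. The log2 fold change was 0.34 ± 0.057 (± standard error throughout, adjusted p = 0.00486 by edgeR), and 0.26 ± 0.055 (adjusted p = 0.00913) with the trends removed. NCAPH was the only subunit that kept its call in all 19 alternatives, the 6 with a library left out included, with log2 fold changes between 0.33 and 0.37 and adjusted p between 0.00283 and 0.0367 in those 6.

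NCAPG, the HEAT-repeat subunit that binds DNA together with the kleisin, lies on chromosome 4 from 17810979 to 17844865 (plus strand, 21 exons, 38.7% GC). Expression was 42.1, 48.0 and 54.0 CPM in the control libraries and 59.1, 84.7 and 64.7 CPM in the overexpressing libraries, again without overlap. Its log2 fold change of 0.53 ± 0.13 (adjusted p = 0.0203 by edgeR) became 0.32 ± 0.072 (adjusted p = 0.0113) with the trends removed. The uncorrected call was lost without control replicate 1 (adjusted p = 0.0861), control replicate 2 (0.105) or P4HA3 overexpression replicate 3 (0.0564). With the trends removed, it was lost only without control replicate 1 (adjusted p = 0.056). LCORL on the opposite strand shares 1634 exon bases with NCAPG and was at 2.98 CPM in control cells.

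SMC2 and SMC4 are the ATPase arms shared by condensin I and condensin II. SMC4 (chromosome 3, 160399274 to 160434954, plus strand, 24 exons, 36.6% GC) was at 42.7, 47.9 and 58.6 CPM in control cells and at 53.2, 115 and 77.0 CPM with overexpression. It had the largest log2 fold change of the 10, 0.72, but with a standard error of 0.23 and an adjusted p of 0.047 (edgeR), and P4HA3 overexpression replicate 1 lay within the control range. With the trends removed it stood at 0.44 (adjusted p = 0.0497), and without P4HA3 overexpression replicate 2 at 0.39 (adjusted p = 0.0524). It lost its call in 8 of the 19 alternatives. Among them were DESeq2 (adjusted p = 0.106), limma-voom (0.0668) and removal of the GC content trend alone (0.0714 by edgeR). The 8 also included omission of either of the first 2 control libraries or of the last overexpressing one. With the GC and length trends removed, omission of any library but P4HA3 overexpression replicate 1 ended the call (adjusted p from 0.0714 to 0.171 by edgeR). TRIM59 and IFT80 on the opposite strand share 1553 and 243 exon bases with SMC4 and were at 3.46 and 2.56 CPM in control cells. SMC2 (chromosome 9, 37.4% GC) was at 15.6, 20.4 and 21.7 CPM against 18.3, 45.1 and 29.3 CPM, a log2 fold change of 0.68 ± 0.26 that missed the threshold (adjusted p = 0.0831). The groups of SMC2 overlapped through P4HA3 overexpression replicate 1.

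In the cohesin ring, SMC1A and STAG1 rose. SMC1A, an ATPase arm (chromosome X, 53374149 to 53422728, minus strand, 25 exons, 47% GC), was at 289, 287 and 314 CPM in control cells and 318, 368 and 357 CPM with overexpression. The groups did not overlap, although the lowest overexpressing library exceeded the highest control library by little. The log2 fold change was 0.23 ± 0.069 (adjusted p = 0.0393 by edgeR) and 0.13 ± 0.039 (adjusted p = 0.0437) with the trends removed. Leaving out control replicate 1 or 2, or P4HA3 overexpression replicate 2 or 3, ended the uncorrected call, with adjusted p between 0.0901 and 0.152. With the trends removed, the call ended without any 1 of the control replicates or without P4HA3 overexpression replicate 3 (adjusted p from 0.0894 to 0.172).

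STAG1, a cohesin subunit that bridges the ring to DNA and to CTCF (chromosome 3, 136336236 to 136752403, minus strand, 34 exons, 40.2% GC), was at 26.9, 31.7 and 34.0 CPM and at 40.02, 54.0 and 40.8 CPM. All 3 overexpressing libraries lay above all 3 control libraries. Its log2 fold change was 0.54 ± 0.12 (adjusted p = 0.0164 by edgeR), 0.34 ± 0.075 (adjusted p = 0.00999) with the trends removed and 0.39 (adjusted p = 0.0106) without P4HA3 overexpression replicate 2. The uncorrected call was lost without control replicate 1 (adjusted p = 0.0737) or control replicate 2 (0.0832). With the trends removed, it was lost only without control replicate 1 (adjusted p = 0.0501). Exons of PCCB on the opposite strand overlap 1661 bases of STAG1 exons, and PCCB, at 94.4 CPM in control cells, had a log2 fold change of -0.02.

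STAG2, the alternative to STAG1 in the same position of the ring (chromosome X, 36.6% GC), was at 35.5, 44.9 and 49.2 CPM in control cells and 40.1, 86.7 and 50.5 CPM with overexpression. SMC3, the partner ATPase of SMC1A (chromosome 10, 37.3% GC), was at 21.8, 25.3 and 30.5 CPM and at 23.9, 50.2 and 30.4 CPM. In both genes P4HA3 overexpression replicate 2 stood apart and replicates 1 and 3 lay within or near the control range. Their log2 fold changes were 0.45 ± 0.23 (adjusted p = 0.179) and 0.43 ± 0.23 (adjusted p = 0.192) by edgeR. Without P4HA3 overexpression replicate 2 both were 0.07, and with the trends also removed both were -0.07, the sign reversed and neither called.

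RAD21, the kleisin that separase cuts at anaphase (chromosome 8, 40.3% GC), was at 197, 190 and 218 CPM and at 207, 265 and 239 CPM. Its log2 fold change was 0.23 ± 0.089 (adjusted p = 0.0836 by edgeR) and 0.06 (adjusted p = 0.367) with the trends removed. Exons of UTP23 on the opposite strand overlap 576 bases of RAD21 exons. UTP23, at 9.28 CPM in control cells, was itself called higher (log2 fold change 0.36, adjusted p = 0.0187 by edgeR). NIPBL, which loads cohesin and drives its loop extrusion (chromosome 5, 39.4% GC), was at 30.3, 43.3 and 42.8 CPM and at 38.9, 90.1 and 53.3 CPM. Its log2 fold change of 0.65 ± 0.25 was among the 3 largest of the 10 but missed the threshold (adjusted p = 0.09), and it was 0.25 without P4HA3 overexpression replicate 2. The groups of RAD21 and of NIPBL overlapped at P4HA3 overexpression replicate 1.

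The groups did not overlap for 4 of the 10 genes, all with the overexpressing libraries higher, against 19.7% of all genes tested in that direction. After removal of the trends the same 4 genes did not overlap, against 21.2% of all genes. For a single gene, 3 samples against 3 give p = 0.1 at best in a two-sided exact permutation test. Groups that do not overlap reach it by construction, so it adds nothing for these 4 genes. The mean log2 deviation of the 10 genes from the control mean was -0.18, 0.02 and 0.16 in the control libraries and 0.11, 0.84 and 0.39 in the overexpressing ones. P4HA3 overexpression replicate 1 thus lay within the control range. With the trends removed, the means were -0.11, 0.05 and 0.06 against 0.06, 0.47 and 0.20.

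**Figure D2:**
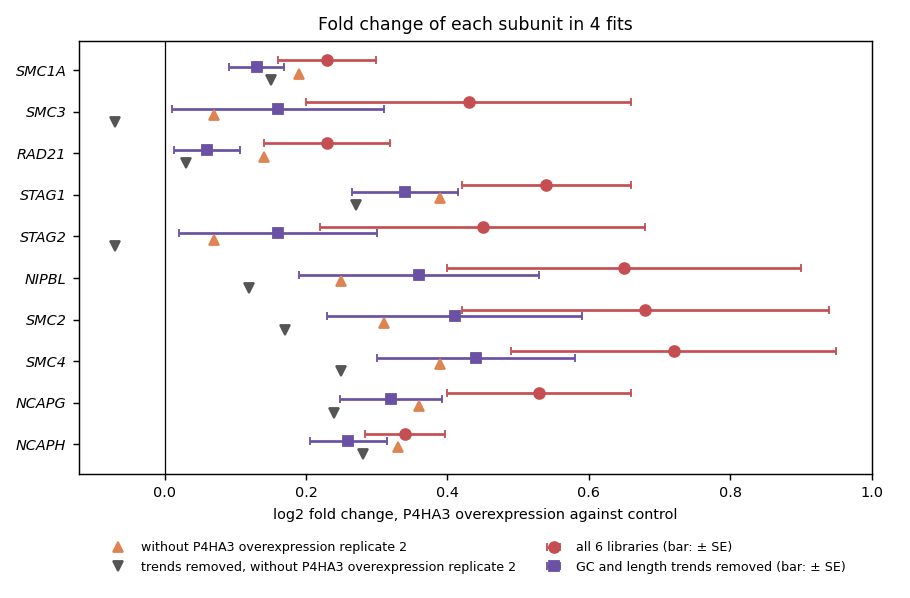
Log2 fold change (horizontal axis) of each subunit with all libraries (red circles), with GC content and length trends removed (purple squares), without P4HA3 overexpression replicate 2 (orange triangles) and with both steps (grey triangles), with bars for ± SE where all libraries were used. NCAPH moves least, from 0.34 to 0.28, and SMC3 and STAG2 pass from 0.43 and 0.45 to -0.07.

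All 10 subunit transcripts were poorer in GC than the median tested gene (49.3%), and 8 of the 10 were below the lower quartile (42.4%). Over the 10 genes the log2 fold change had a Spearman's rho of -0.60 with GC content, as a description of genes that share the same libraries. The difference between groups that the fitted trends alone would give these genes ran from 0.08 for NCAPH to 0.26 for STAG2 on the log2 scale. NCAPH and SMC1A, at 46.1% and 47% GC, were thus the subunits with the smallest trend, 0.08 and 0.10, and SMC2, SMC3, SMC4, NIPBL and STAG2 carried 0.24 or more. In the uncorrected values, 9 of the 10 were above the upper quartile of tested genes in their 2-point bin of GC content, with RAD21 the exception. Genes between 36% and 38% GC had a median log2 fold change of 0.264, and the 4 subunits in that range, SMC4, SMC2, STAG2 and SMC3, stood at 0.72, 0.68, 0.45 and 0.43, of which STAG2 and SMC3 were at 0.07 without P4HA3 overexpression replicate 2.

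**Figure D3:**
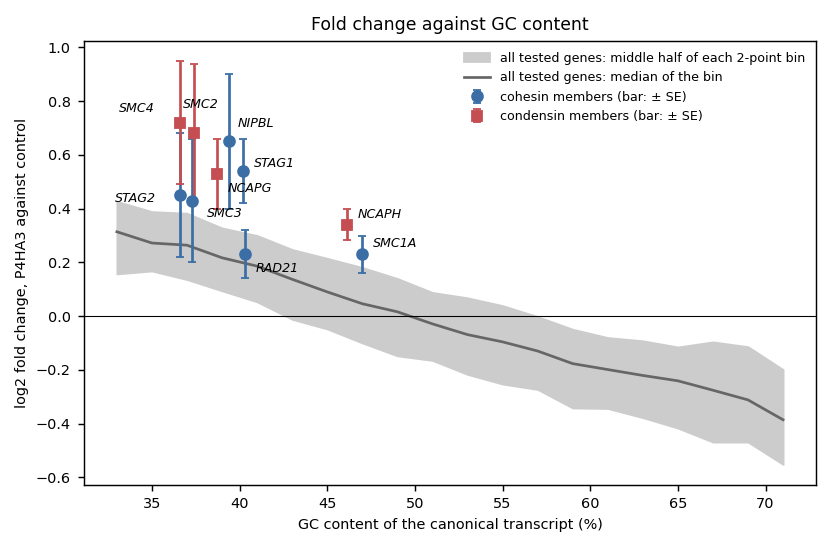
Log2 fold change (vertical axis) against the GC content of the canonical transcript (horizontal axis, percent) for cohesin (blue) and condensin (red) subunits with ± SE, over the median (line) and interquartile range (grey) of all tested genes in 2-point bins. The median falls from 0.314 at 33% to -0.386 at 71% GC, and every subunit except RAD21 lies above the grey band.

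The levels were compared per length as TPM, which scales counts by transcript length and then by library, computed from the counts and the canonical transcript of each gene. RAD21 was the most abundant subunit, at 110 ± 11.7 TPM (SD, n = 3) in control cells and 137 ± 22.8 TPM with overexpression, followed by SMC1A at 61.0 ± 5.15 and 75.5 ± 9.15 TPM. NCAPG (20.9 ± 3.17 TPM in control cells), SMC4 (19.4 ± 3.78) and NCAPH (18.6 ± 0.588) overlapped in control libraries. A lower series followed with STAG2 at 13.97 ± 2.58, STAG1 at 10.2 ± 1.43, SMC3 at 9.38 ± 1.87, NIPBL at 7.43 ± 1.49 and SMC2 at 6.49 ± 1.20 TPM, each overlapping its neighbour. The order was the same with overexpression except that SMC4 and NCAPG changed places. These levels rest on 1 transcript model per gene, of 3660 to 10425 bases, and on libraries that differ in their GC dependence.

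**Figure D4:**
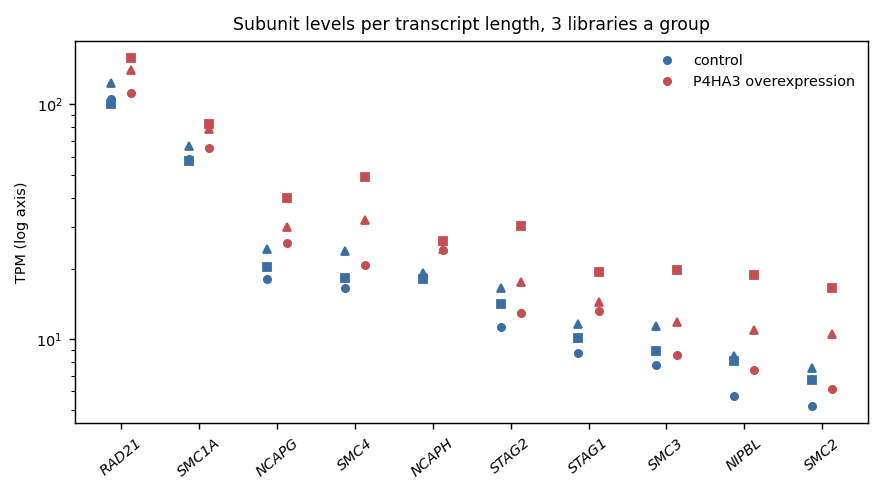
TPM (vertical log axis) of the 10 subunits, ordered by the control mean, in control (blue) and P4HA3 overexpression (red) libraries, with replicates 1, 2 and 3 as circles, squares and triangles. RAD21 and SMC1A stand above the rest in every library, and SMC2 has the lowest control mean, at 6.49 TPM.

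Ratios between subunits of a library do not depend on its depth. STAG2 to STAG1, per length, was 1.29, 1.39 and 1.42 in control cells and 0.983, 1.57 and 1.22 with overexpression, and the groups overlapped. The transcripts of the 2 SMC arms were unequal in level for both complexes, and these values do not measure the proteins. SMC3 (37.3% GC) and SMC1A (47% GC) also differ in GC content, for which the ratios given here are not corrected. SMC3 was at 0.133, 0.155 and 0.171 of SMC1A in control cells and 0.132, 0.240 and 0.15 with overexpression. SMC4 exceeded SMC2 by 3.16, 2.72 and 3.13 times in control cells and by 3.36, 2.96 and 3.05 times with overexpression. The log2 ratio of SMC4 to SMC2 differed between the groups by 0.06, less than the spread between replicates (SD 0.12 and 0.09), although both genes had large uncorrected fold changes.

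Condensin II carries its own kleisin and HEAT subunits, NCAPH2, NCAPG2 and NCAPD3, in place of NCAPH, NCAPG and NCAPD2. NCAPH2 to NCAPH was 2.85, 2.87 and 2.68 in control cells and 2.35, 2.00 and 2.31 with overexpression. NCAPG2 to NCAPG was 2.93, 2.36 and 2.41 in control cells and 2.33, 1.80 and 2.20 with overexpression. Every overexpressing library was thus lower in both ratios, with log2 differences of -0.34 and -0.28 (exact permutation p = 0.1 for each, the smallest this design allows, and 0.3 after Benjamini-Hochberg adjustment over 6 ratios). With the trends removed the differences were -0.04 and -0.18 and the groups overlapped. NCAPH2, at 61.3% GC, lay on the opposite side of the GC trend from NCAPH. NCAPD3 to NCAPD2 differed by -0.02 with overlapping groups before the correction, and by -0.13 after it, when it was the only one of the 6 ratios whose groups did not overlap (exact permutation p = 0.1, adjusted 0.6).

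The rest of the machinery was followed in a list of 34 further genes, of which 33 were tested. Of these, 8 were higher and 1 lower by edgeR at an adjusted p under 0.05, beside 9.36% and 11.4% of all genes, and 29 of 33 had a positive log2 fold change beside 50.7% of all genes. The median was 0.286, and 0.158 with the trends removed, when 9 were higher and 1 lower, beside 10.6% and 7.94% of all genes. The higher calls shared by both fits were 5: CTCF, NCAPD2, NCAPG2, KIF4A and MKI67. CTCF, the factor that stops cohesin at loop boundaries, rose from 93.1 ± 3.81 to 116 ± 3.17 CPM (mean ± SD of 3 libraries), with a log2 fold change of 0.31 (adjusted p = 0.00669). KIF4A, the chromokinesin that works with condensin on the chromosome axis, rose from 110 ± 4.84 to 152 ± 7.58 CPM, with a log2 fold change of 0.46 (adjusted p = 0.00154), and 0.40 with the trends removed. CTCF and KIF4A were called in all 19 alternatives. The 8 higher calls became 2, 2 and 8 without control replicate 1, 2 or 3 and 20, 5 and 2 without P4HA3 overexpression replicate 1, 2 or 3. Over all genes, the 1416 higher calls became 229, 163 and 1393, and 2814, 884 and 275, in the same fits. NCAPD2, the third non-SMC subunit of condensin I, rose from 429 ± 6.53 to 490 ± 8.05 CPM (log2 fold change 0.19, adjusted p = 0.0278).

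Among regulators of cohesin, WAPL, which releases cohesin from DNA, was called higher (log2 fold change 0.29, adjusted p = 0.0416), but not with the trends removed (0.09, adjusted p = 0.174). PDS5A and PDS5B, which hold WAPL or the acetyltransferases on the ring, had log2 fold changes of 0.36 and 0.34 and did not pass the test. The loader subunit MAU2, partner of NIPBL, was at -0.02 and, with the sign turned, at 0.11 when the trends were removed (adjusted p = 0.836 and 0.121), and the securin gene PTTG1 was at 0.05. Sororin (CDCA5) and separase (ESPL1) had 0.04 and 0.10, and were called higher with the trends removed, at 0.16 (adjusted p = 0.0159) and 0.20 (adjusted p = 0.0208). None of the 3 acetylation genes ESCO1, ESCO2 and HDAC8 passed the test in either fit.

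For condensin II, NCAPG2 rose (log2 fold change 0.24, adjusted p = 0.0332), and so did MCPH1, which restrains condensin II in interphase (0.41, adjusted p = 0.0224), although MCPH1 was not called with the trends removed (0.22, adjusted p = 0.111). NCAPD3 was at 0.17 (adjusted p = 0.0518). NCAPH2 was at 0.01 and, with the trends removed, was called at 0.21 (adjusted p = 0.00813). None of the 7 SMC5/6 genes was called in the uncorrected edgeR fit, and NSMCE4A was called with the trends removed (0.21, adjusted p = 0.0176). TOP2A, topoisomerase II alpha, was higher at 0.50 (adjusted p = 0.0466) but not with the trends removed (0.27, adjusted p = 0.0559), and MKI67, which coats mitotic chromosomes, was higher at 0.49 (adjusted p = 0.0279) and 0.39 (adjusted p = 0.00671). The single lower gene was STAG3, the meiotic counterpart of STAG1 and STAG2. It had 18, 14 and 15 counts in control libraries and 7, 9 and 7 with overexpression (log2 fold change -1.04, adjusted p = 0.0335). STAG3 shares 462 exon bases with a protein-coding gene on its own strand and 1276 with CASTOR3P on the opposite strand, which makes so few counts uncertain, and of the 6 omissions of a library it kept its call in 1, that of P4HA3 overexpression replicate 2 (adjusted p from 0.0447 to 0.126).

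Of 18 mitotic genes outside these lists, 13 were called higher and 0 lower by edgeR, beside 9.36% and 11.4% of all genes, and their summed expression lay between 2638 and 2718 CPM in control libraries and between 3224 and 3337 CPM in overexpressing libraries. With the trends removed 14 were higher and 0 lower, beside 10.6% and 7.94% of all genes. Of 16 S phase genes, 2 were called higher and 6 lower, and their sum ran from 3960 to 4095 CPM in control and from 3659 to 3929 CPM in overexpressing libraries. With the trends removed 1 of them was higher and 5 were lower. The part of cell cycle phase in the differences of the subunits was not tested.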

How the data were processed

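Poly-A RNA of 3 control and 3 P4HA3 overexpression samples was sequenced by the authors as strand-specific paired ends on a DNBSEQ-T7. According to the study's methods, reads were aligned to GRCh38 with STAR and counted per gene with HTSeq, whereas the submitters' processing notes name HISAT2. The strand setting and tool versions are not given in the sources used here. The deposited values are raw counts of 60664 Ensembl genes, 1 column per library, and 60463 matched the GENCODE annotation of GRCh38.

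Counts were filtered with filterByExpr (minimum count 10), normalized by TMM and tested with the quasi-likelihood test of edgeR 4.0.16 (two-sided) in R 4.3.3, with Benjamini-Hochberg adjustment over 15130 genes. A gene was called at an adjusted p under 0.05. Standard errors are the log2 fold change divided by the root of F. The trends were removed by modelling how far each library lay from the average library as a smooth function of GC and of log2 length of the canonical transcript (gam of mgcv 1.9.3), and using the fitted values as offsets. This removes any group difference that follows either, whatever its origin. Alternatives used DESeq2 1.42.0, limma-voom 3.58.1, edgeR's exact test, other normalizations and filters, the replicate number as a block, P4HA3 left out of the library sizes, an adjusted p under 0.01 and each library left out in turn. The correction with each library left out was added after seeing the data. The common biological coefficient of variation that edgeR estimated over all genes was 7.66%, and 1 CPM corresponds to 23.8 counts per library. Single subunits departed from it, as in NCAPH at 71.1 ± 2.25 CPM and SMC2 at 30.9 ± 13.5 CPM with overexpression (mean ± SD).

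The scripts were tested on simulated data. The 10 subunits, the 34 further genes and the cell cycle and cell type lists were chosen with earlier results of these data known. Genes named are P4HA3, the 10 subunits, every further gene called in the uncorrected or corrected fit, and single list members chosen after their values were seen. Some genes whose exons overlap those of a named gene are also given. Protein sequences were not used here.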

Additional observations from a re-analysis of the deposited data

How the results depend on the processing

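The log2 fold change of every subunit stayed positive in the 19 alternatives, 190 of 190 values, of which 154 kept their side of the threshold, 19 gained a call and 17 lost one. The number of subunits called higher (5) was 10 with no low-count filter, 10 with the replicate block and 1 at an adjusted p under 0.01, and ran from 1 to 10 with a library left out. It was 7 with the replicate block after GC content and length correction. Libraries that share a replicate number share nothing else in the labels, which do not say whether the numbers pair the samples. The correlations of their deviations were 0.334, -0.084 and 0.021 for replicates 1, 2 and 3. Such deviations also follow the GC dependence of each library, so these correlations cannot decide whether the samples are paired. Control replicate 1 correlated best with its own number, and control replicates 2 and 3 did not. With the correction and a library left out, 1 to 7 subunits were called, and 1, 3, 3 and 3 without control replicate 1, 2, 3 and P4HA3 overexpression replicate 3. Without P4HA3 overexpression replicate 2, SMC3 (-0.067) and STAG2 (-0.073) were then reversed.

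The 8 further genes called higher became 19 with no low-count filter, 16 with the replicate block, 13 with the block and the correction, 2 at an adjusted p under 0.01 and 2 to 20 with a library left out, or 5 to 14 with the correction as well. The 1 called lower was 0 with DESeq2, with at least 10 counts in every library, with GC content correction alone and at an adjusted p under 0.01. It was 2 with the exact test, with no filter and with the replicate block. With a library left out it was 0 to 1, or 0 with the correction as well. STAG3 had 7, 9 and 7 counts with overexpression, so requiring at least 10 counts in every library left it out. DESeq2 gave it no adjusted p, so STAG3 has values in 17 alternatives, and in neither case did it fail a test. NCAPH2 reversed to -0.0019 with upper-quartile normalization, to -0.028 without control replicate 3 and to -0.051 without P4HA3 overexpression replicate 1, within a range up to 0.0627 with a library left out. Over all genes, 1416 were higher and 1731 lower, and 1603 and 1202 with the correction. These were 2384 and 2101 with no filter, 2138 and 2175 with the replicate block, 2136 and 1657 with the block and the correction, 221 and 507 at an adjusted p under 0.01, 1286 and 987 with GC content correction alone, and 163 to 2814 higher and 371 to 2716 lower with a library left out. Of 54 alternative values of the subunit ratios, 52 moved by less than 1 SD, and NCAPH2 to NCAPH (-0.042) and NCAPD3 to NCAPD2 (-0.132) moved further with the correction. The stricter threshold lowers counts by construction. Beyond this and the alternatives without a test of STAG3, the causes of the changes were not tested. Without the filter, SMC3 went from an adjusted p of 0.192 to 5e-05 at a log2 fold change of 0.44. Counts of STAG3, under 20 per library, limit its estimate.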
